A study of Caenorhabditis elegans with 4 samples.

Results

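The miRNAs described here are the mature strands of *C. elegans* numbered from miR-353 to miR-800 that remain when 12 names are left out (miR-356a, miR-356b, miR-357, miR-358, miR-785, miR-786, miR-790, miR-791, miR-793, miR-794, miR-795 and miR-797). The rule used names only and no read count, but it was set with earlier results of these data known. It gave 25 mature strands from 15 hairpins, out of 434 mature strands and 250 hairpins in the counts. Small RNA was sequenced from whole adults collected on day 0, their first day of adulthood, in 4 libraries that each stand for 1 strain and, by the labels, a pool of about 1000 worms. WT (N2 Bristol) and *glp-1(e2144)* (CF1903) were kept at 25 °C. ALG-1/OE (CT20) and its control strain ctrl (PE255) were kept at 20 °C. CT20 carries the transgene zaIs5, in which *alg-1p* drives a GFP-tagged *alg-1*, and PE255 carries feIs5 on chromosome X, in which *sur-5p* drives *luciferase::GFP*. Both transgenes hold the *rol-6(su1006)* marker, so both strains differ from WT in transgene and temperature, and each is a single integrated line.

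A miRNA is cut from a hairpin precursor as a short duplex with a 5p and a 3p strand. An Argonaute protein keeps the guide strand and the other strand is usually degraded, so the reads of most hairpins lie mainly on a single strand. ALG-1 is an Argonaute that carries miRNAs in *C. elegans*, and GLP-1 is the Notch receptor that keeps germline stem cells dividing, so *glp-1(e2144)* worms at 25 °C lack most of the germline. Names in this range were mostly given to miRNAs found later than the founding families, by computational screens or early deep sequencing, and few of them have a known role. miR-355 has been linked to insulin signalling in immunity and miR-360 to germline apoptosis. The study set *glp-1(e2144)* against WT, and ctrl served as the reference of ALG-1/OE. The reference libraries were also compared with each other to show how far they lie apart.

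With 1 library per strain there was no replicate check. Intervals are 95% exact intervals that cover counting error only, and PCR copies may make them too narrow. Tests on reads compare libraries, not conditions. Reads on mature strands numbered between 175048 in ctrl and 536907 in *glp-1(e2144)*. The mRNAs of *glp-1* and *alg-1* are outside these counts, so the genotypes could not be checked on their targets. The miR-35 to miR-42 family, abundant in embryos and germline, took 11.3% of the miRNA reads in WT and 0.0756% in *glp-1(e2144)*. Levels are given in RPM, the reads of a strand per 1e+06 mature miRNA reads of the library, and every fold change is relative to that total, with a log2 value above 1 or below -1 as the cut-off. In whole worms, fewer cells that make a miRNA and less miRNA per cell cannot be told apart.

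The 25 strands together held under 0.1% of the miRNA reads in every library. Together they held 126 reads in WT, 331 in *glp-1(e2144)*, 124 in ctrl and 203 in ALG-1/OE. As a share of miRNA reads this was 0.0597% (95% Clopper-Pearson interval 0.0497% to 0.0710%) in WT and 0.0616% (0.0552% to 0.0687%) in *glp-1(e2144)*. It was 0.0852% (0.0739% to 0.0978%) in ALG-1/OE and 0.0708% (0.0589% to 0.0845%) in ctrl. The log2 change of the sum was 0.047 (-0.25 to 0.35) in *glp-1(e2144)* and 0.27 (-0.062 to 0.60) in ALG-1/OE, so a change of the whole group was not detectable at this depth. At least 1 read was seen for 16 strands in WT, 14 in *glp-1(e2144)*, 11 in ctrl and 16 in ALG-1/OE, and at least 10 reads for between 4 and 6 strands in a library. The highest place that any of them took in the abundance order was 75th, held by miR-359 in *glp-1(e2144)*. In the other libraries the highest place was between 92nd and 102nd. The median miRNA with reads had 18 reads in WT, 31 in *glp-1(e2144)*, 19 in ctrl and 24 in ALG-1/OE. The median strand of the group with reads had 3.5, 5, 4 and 5 in that order. miR-359 and both 5p strands of miR-789 were at or above the median of all miRNAs with reads in every library.

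**Figure D1:**
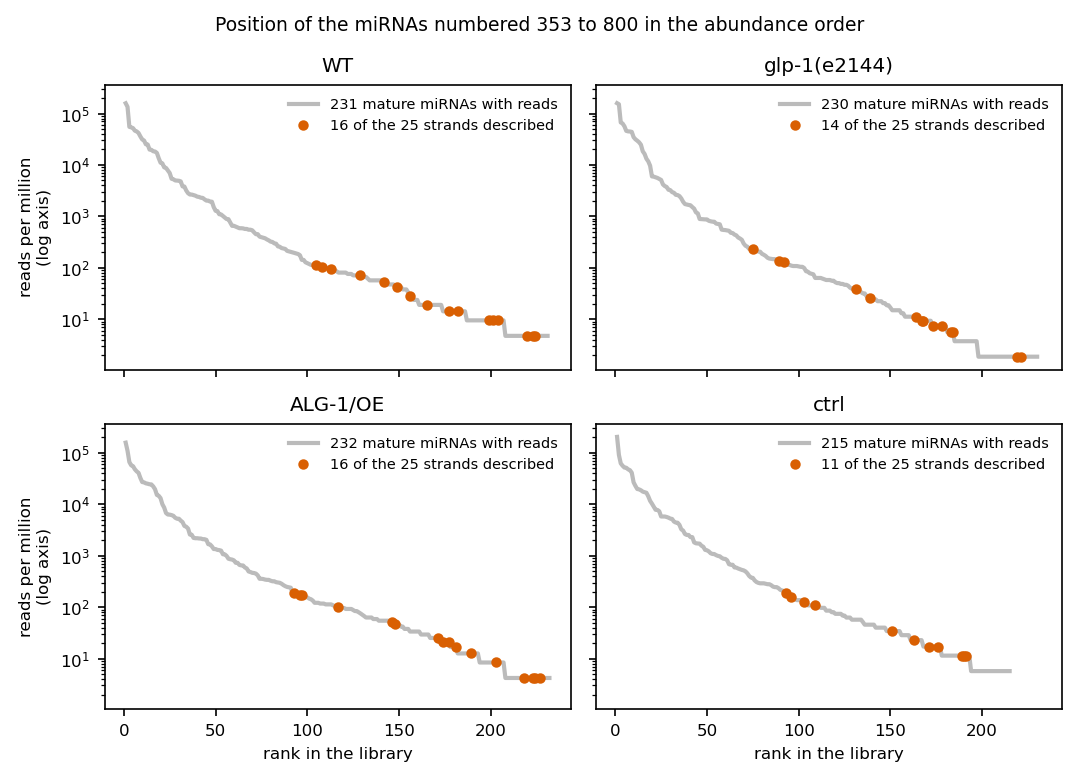
RPM (log axis) against rank for every mature miRNA with reads in each of the 4 libraries, with the strands described here as orange points and ties placed in name order. The highest point is miR-359 at rank 75 in *glp-1(e2144)*, and no point reaches the top of a curve.

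Over the 4 libraries, 18 of the 25 strands (72%) had a read, against 62.9% of all 434. Reads in every library were seen for 10 strands, or 40%, against 42.6% of all. The strands with reads held a median of 13.5 reads over the 4 libraries, and all mature miRNAs with reads a median of 53. The 18 detected strands of the names left out had a median of 39.5 reads and the 78 detected strands numbered 1000 and above a median of 3.5, and these lists were not tested against each other. Of the 25 strands, 11 had at least 10 reads in total, 7 had between 1 and 9, and 7 had none.

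The strands without a read in any library were miR-355-3p, miR-360-5p, miR-360-3p, miR-787-5p, miR-792-5p, miR-796 and miR-798. By counting error alone, a count of 0 allows a level of up to 3 reads, which is 14.2 RPM in WT, 5.59 in *glp-1(e2144)*, 17.1 in ctrl and 12.6 in ALG-1/OE. The limit does not cover a strand that the alignment or the counting missed, which was not tested. For miR-360 and miR-798 no read fell anywhere on the hairpin. The hairpin of miR-796 held 1 read in WT and 1 in ALG-1/OE, outside the mature strand. Among the 7 rare strands, miR-355-5p had 3 reads in WT, 1 in ALG-1/OE and none in *glp-1(e2144)* or ctrl. miR-784-3p had 2 reads in WT, 4 in *glp-1(e2144)* and none in the libraries at 20 °C, and miR-784-5p had 1 read in each of *glp-1(e2144)* and ALG-1/OE. These counts lie near the limit that a count of 0 allows. miR-789-3p, miR-792-3p, miR-800-5p and miR-392-5p had at most 2 reads in any library.

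The hairpins stand at the coordinates of the WBcel235 annotation in 15 of 15 cases, as do 243 of all 250, although ce10 is the build named for the alignment. Whether this difference of build affected the counts was not tested. On chromosome X lie 9 of the 15 hairpins (60%), against 70 of all 250 (28%). The hairpin of miR-359 (X:3004291-3004400, plus strand) is intergenic and ends 267 bp before that of miR-785 on the same strand. That of miR-787 (X:11294708-11294797, plus strand) lies 209 bp from *inx-2*, a gap junction gene on the other strand. The hairpins of miR-788 (X:8485294-8485371), miR-799 (X:8600643-8600735), miR-800 (X:380919-380991) and miR-784 (X:8074922-8075009) are intergenic on the minus strand, and that of miR-392 (X:13597231-13597340) is intergenic on the plus strand. Both loci of miR-789 are on the minus strand of chromosome IV. The first (IV:16740693-16740789) lies in a 5′ UTR exon of *Y51H4A.24* on the same strand and in an intron of *Y51H4A.25* on the other. The second (IV:17309307-17309403) lies in an intron of *T28F3.9*, read from the other strand. The hairpin of miR-354 (I:14468382-14468491, minus strand) lies in exonic sequence of *rps-20*, a ribosomal protein gene on the same strand. It lies across the end of the coding part and the 3′ UTR. The remaining hairpins with few or no reads were mir-355 on chromosome II, mir-792 on V, mir-796 on X, all intergenic, mir-798 in an intron of *ilcr-1* on IV, and mir-360 on X, of which 62 bp overlap an exon of the ncRNA *Y23B4A.5*.

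miR-359, for which only a single mature strand is listed (X:3004352-3004373), had the most reads of the group over the 4 libraries, 221, while in WT miR-789-5p had more. It had 22 reads in WT, 122 in *glp-1(e2144)*, 33 in ctrl and 44 in ALG-1/OE. Its level was 104 RPM in WT (exact Poisson interval 65.3 to 158), 227 in *glp-1(e2144)* (189 to 271), 189 in ctrl (130 to 265) and 185 in ALG-1/OE (134 to 248). WT was thus the lowest library. Its interval lay below that of *glp-1(e2144)* and overlapped those of ALG-1/OE and ctrl. miR-359 and both 5p strands of miR-789 made up 52.4% of the group's reads in WT, 79.8% in *glp-1(e2144)*, 64.5% in ctrl and 62.6% in ALG-1/OE.

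miR-789-5p, from the first locus, had 24 reads in WT, 74 in *glp-1(e2144)*, 19 in ctrl and 41 in ALG-1/OE. miR-789-2-5p, from the second, had 20, 68, 28 and 42 reads in the same order. In ctrl the second copy had 1.47 times the reads of the first, and the ratio of the copies was nearer to 1 in the other libraries. Their 3p strands share a single name, and how reads that match both loci were assigned is not given in the sources used here, so the split between the copies is uncertain. Summed over both copies, the 5p strands had 44 reads in WT, 142 in *glp-1(e2144)*, 47 in ctrl and 83 in ALG-1/OE.

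miR-787-3p had 15 reads in WT, 14 in *glp-1(e2144)*, 22 in ctrl and 24 in ALG-1/OE, although the *glp-1(e2144)* library held 2.54 times as many miRNA reads as WT. Its level was 71.0 RPM in WT (39.8 to 117), 26.1 in *glp-1(e2144)* (14.3 to 43.7), 126 in ctrl (78.8 to 190) and 101 in ALG-1/OE (64.6 to 150). The *glp-1(e2144)* interval lay below those of ALG-1/OE and ctrl and overlapped that of WT at its upper end. miR-354-5p had 11 reads in WT, 4 in *glp-1(e2144)*, 6 in ctrl and 12 in ALG-1/OE, or 52.1, 7.45, 34.3 and 50.4 RPM in that order. Its interval in *glp-1(e2144)* (2.03 to 19.1) lay below those of WT (26.0 to 93.2) and ALG-1/OE (26.0 to 88.0) and overlapped that of ctrl (12.6 to 74.6). miR-354-3p had between 4 and 5 reads in each library.

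miR-788-5p had 9 reads in WT, 21 in *glp-1(e2144)*, 2 in ctrl and 3 in ALG-1/OE. Its level was 42.6 RPM in WT and 39.1 in *glp-1(e2144)*, the libraries at 25 °C, and 11.4 in ctrl and 12.6 in ALG-1/OE, those at 20 °C. Strain and temperature cannot be told apart here, and the intervals of WT (19.5 to 80.9) and ctrl (1.38 to 41.3) overlapped. miR-788-3p had 2 reads in WT, 6 in *glp-1(e2144)*, none in ctrl and 5 in ALG-1/OE. miR-392-3p had 6 reads in WT, 5 in *glp-1(e2144)*, 3 in ctrl and 11 in ALG-1/OE. Its interval in *glp-1(e2144)* (3.02 to 21.7 RPM) lay just below that of ALG-1/OE (23.1 to 82.6), and the other intervals overlapped. miR-800-3p had 3, 3, 2 and 6 reads and miR-799 had 2, 3, 3 and 4 reads in the order WT, *glp-1(e2144)*, ctrl and ALG-1/OE, and for each of these strands the intervals of all libraries overlapped.

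**Figure D2:**
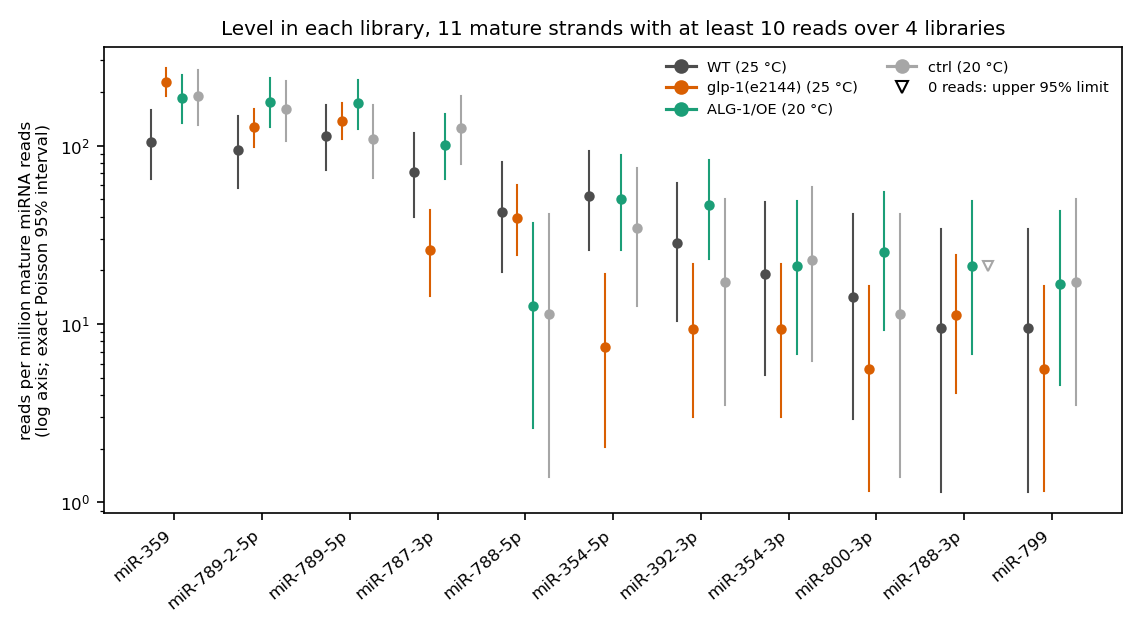
Level of the 11 mature strands with at least 10 reads over the 4 libraries, in RPM on a log axis, 1 point per library with its exact Poisson 95% interval; an open triangle is the upper limit where no read was counted. miR-359 has its lowest level in WT (104) and its highest in *glp-1(e2144)* (227), and miR-787-3p has its lowest level in *glp-1(e2144)* (26.1).

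The use of the strands was read from the share of 5p reads within a hairpin, which needs no scaling between libraries. A strand that the alignment or the counting missed would have too low a share, and this was not tested. Both strands are listed for 11 of the 15 hairpins, and 10 of these had reads. Over the 4 libraries, the 5p strand held more reads in 5 hairpins and the 3p strand in 5. At both loci of miR-789 the reads lay on the 5p strand, with 98.1% (94.7% to 99.6%) at the first and 97.5% (93.8% to 99.3%) at the second. All 75 reads of the miR-787 hairpin lay on the 3p strand, and the 5p share has an upper limit of 4.80%. The miR-392 hairpin had 25 reads on 3p and 1 on 5p, and the miR-800 hairpin 14 on 3p and 1 on 5p.

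The hairpins of miR-354 and miR-788 had reads on both strands. That of miR-354 lies in exonic sequence of *rps-20*, and how many of its reads are *rps-20* fragments was not tested. miR-354 had 64.7% of its strand reads on 5p (50.1% to 77.6%) and miR-788 had 72.9% (58.2% to 84.7%). For miR-788 the 5p share was 81.8% in WT and 77.8% in *glp-1(e2144)*. It was 37.5% in ALG-1/OE, where only 8 reads lay on the hairpin and the interval ran from 8.52% to 75.5%, and both reads in ctrl lay on 5p. For miR-354 it was 73.3% in WT, 44.4% in *glp-1(e2144)*, 60% in ctrl and 70.6% in ALG-1/OE, with intervals that all overlapped.

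Strand use was tested between the libraries of a comparison for hairpins with at least 10 strand reads in each. In *glp-1(e2144)* against WT, 4 hairpins could be tested (mir-787, mir-788 and both of miR-789) and 0 passed an adjusted p of 0.05, where 22.6% of 93 hairpins passed. In ALG-1/OE against ctrl, 4 could be tested (mir-354, mir-787 and both of miR-789) and 0 passed, where 7.22% of 97 hairpins passed. The smallest unadjusted p was 0.24, for the second locus of miR-789 in *glp-1(e2144)* (Fisher's exact test, two-sided). The mir-787 hairpin had no 5p read in any library, so its tests could not pass. In *glp-1(e2144)* against WT each locus of miR-789 had only a single 3p read, so these tests could not pass either. The loci of miR-789 had few 3p reads in ALG-1/OE and ctrl as well. For the remaining hairpins only a large shift would have been seen, so these results do not show that strand use was stable.

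Reads of the miR-354 hairpin fell outside both listed strands in every library. They numbered 8 of 23 hairpin reads in WT, 3 of 12 in *glp-1(e2144)*, 9 of 19 in ctrl and 6 of 23 in ALG-1/OE. Over the 4 libraries this was 33.8% of the hairpin's reads, the second highest value among 132 hairpins with at least 10 reads, of which the median was 0% and only mir-1828 was higher. No other hairpin of the group had more than 1 such read in a library. The hairpin lies in the *rps-20* exonic sequence named above, and the share of *rps-20* mRNA fragments among its reads was not tested.

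**Figure D3:**
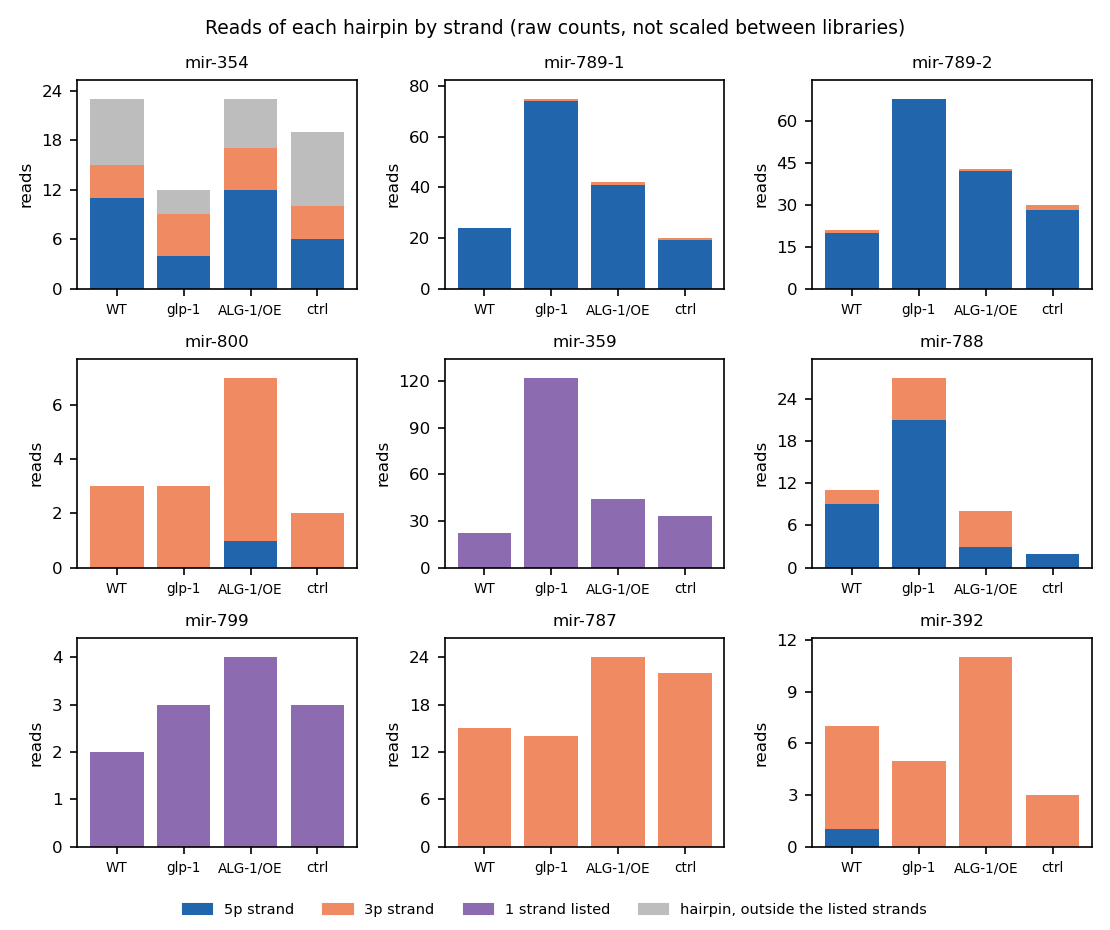
Raw reads of the 9 hairpins with at least 10 reads over the 4 libraries, stacked by strand (5p, 3p, a single listed strand, and reads outside the listed strands), 1 bar per library and its own vertical axis for each hairpin. miR-789 reads lie on 5p and miR-787 reads on 3p in every library, and the hairpin of miR-354 holds 26 reads outside its strands.

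In *glp-1(e2144)* against WT, miR-359 rose and miR-354-5p and miR-787-3p fell relative to the miRNA total. Of the 25 strands, 13 had reads in both libraries, since the other 12 lacked reads in at least 1 of them. Above the cut-off lay 1 of these 13 strands, where 9.55% of all 199 miRNAs measured lay above it, and below it lay 6, where 27.1% of all did. With an adjusted p under 0.05 as well, 1 strand rose (5.03% of all) and 2 fell (17.6% of all). An unadjusted p under 0.05 was reached by 3 of the 13, where 50.3% of all 199 reached it (exact binomial test on the reads). The median log2 fold change of the 13 was -0.76, and that of all 199 was -0.013. The median of the 13 rests on strands with few reads, and over the 6 with at least 10 reads in the higher library it was 0.077.

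miR-359 rose 2.18-fold, with a log2 fold change of 1.12 (0.46 to 1.85; exact binomial test on the reads, Benjamini-Hochberg adjusted over 199 miRNAs, p = 0.0011). When the reads of miR-35 to miR-42 were taken out of the total, its log2 fold change was 0.95, below the cut-off, with an adjusted p of 0.0082 in the same exact test. miR-785-3p, from the next hairpin on the same strand, rose less, with 388 reads against 116 and a log2 fold change of 0.40 (0.093 to 0.71). The reads of miR-359 divided by those of miR-785-3p gave 0.190 in WT and 0.314 in *glp-1(e2144)*, a ratio that needs no scaling. This pair was compared after its values were seen (Fisher's exact test, two-sided, p = 0.0497, not adjusted).

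miR-354-5p had a log2 fold change of -2.81 (-4.91 to -1.05; exact binomial test, adjusted p = 0.0011), from 11 reads to 4, a pair of 15 reads. miR-354-3p, with 5 reads against 4, had a value of -1.02 (-3.24 to 1.31), an interval that includes 0. miR-787-3p had a log2 fold change of -1.45 (-2.61 to -0.29; exact binomial test, adjusted p = 0.027). The miR-359 reads for each miR-787-3p read went from 1.47 in WT to 8.71 in *glp-1(e2144)*. Both strands were already called in opposite directions on the same reads, so this ratio adds no separate support. The other strands below the cut-off were miR-392-3p at -1.61 (-3.66 to 0.37), miR-800-3p at -1.35 (-4.25 to 1.55), miR-354-3p, and miR-792-3p with 1 read in each library, and all of their intervals included 0.

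The 5p strands of miR-789 had log2 fold changes of 0.28 (-0.40 to 1.01) and 0.42 (-0.32 to 1.22), and their sum one of 0.34 (-0.15 to 0.87). With this scaling a difference from WT was thus not detectable. miR-788-5p had a value of -0.12 (-1.31 to 1.19). The sum of all strands other than miR-359 and the miR-789 5p strands was 67 reads against 60, a log2 fold change of -1.19 (-1.71 to -0.66). This sum was formed after the values were seen and is a description.

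The study scaled to all reads of a sample, and those totals are not used here. Such a scaling adds the same amount to every log2 fold change of a comparison. The interval bound nearest to 0 was -0.29 for miR-787-3p, -1.05 for miR-354-5p and 0.46 for miR-359, and a shared shift larger than such a bound, in the direction of 0, would bring 0 into that interval.

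In ALG-1/OE against ctrl, no strand passed the test. Of the 25, 11 had reads in both libraries. Above the cut-off lay 2 of the 11, where 11.3% of all 204 miRNAs measured did, and below it lay 1, where 6.86% did. With an adjusted p under 0.05 as well there were 0 in each direction, where 1.96% of all rose and 0.98% fell, and 0 of the 11 had an unadjusted p under 0.05, where 34.8% of all 204 did (exact binomial test on the reads). The median log2 fold change was 0.14 for the 11 and 0.14 for all 204. miR-392-3p, at 1.43 (-0.49 to 3.91), and miR-800-3p, at 1.14 (-1.34 to 4.48), were the strands above the cut-off, and miR-789-3p, with 1 read against 2, was the strand below it.

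The more abundant strands bounded the change more tightly. miR-359 had a log2 fold change of -0.029 (-0.71 to 0.67) and miR-787-3p one of -0.32 (-1.22 to 0.58). The 5p strands of miR-789 had values of 0.67 (-0.15 to 1.53) at the first locus and 0.14 (-0.58 to 0.89) at the second, and their sum one of 0.38 (-0.16 to 0.92). miR-354-5p had a value of 0.56 (-0.97 to 2.26). miR-788-3p had 5 reads in ALG-1/OE and none in ctrl, and the intervals of 6.82 to 49.0 RPM in ALG-1/OE and up to 21.1 RPM in ctrl overlapped. The upper end in ctrl is that of the exact Poisson interval, which lies above the limit of 3 reads used for a count of 0 elsewhere.

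**Figure D4:**
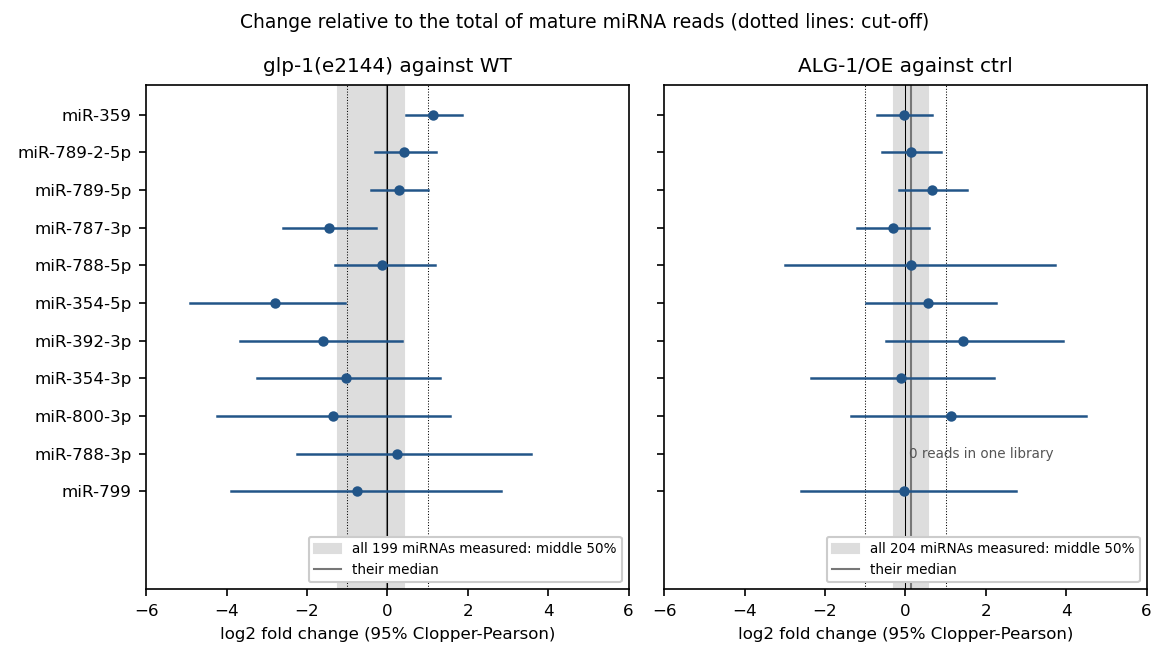
Log2 fold change of the 11 strands with at least 10 reads over the 4 libraries, relative to the total of mature miRNA reads, with 95% Clopper-Pearson intervals, for *glp-1(e2144)* against WT on the left and for ALG-1/OE against ctrl on the right. The grey band and line are the middle 50% and the median of all miRNAs measured, dotted lines mark the cut-off, and the intervals of miR-359 (1.12), miR-787-3p (-1.45) and miR-354-5p (-2.81) leave 0 out on the left, while every interval on the right includes 0.

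The changes in both comparisons were set against each other for the 10 strands with reads in all 4 libraries, and these comparisons share no library. Of the 10 strands, 2 differed with an adjusted p under 0.05, where 44.3% of all 185 miRNAs did (exact conditional test of the ratio of ratios, two-sided). The log2 fold change of miR-359 in *glp-1(e2144)* exceeded that in ALG-1/OE by 1.15 (exact test, adjusted p = 0.040). That of miR-354-5p was different by -3.36 (exact test, adjusted p = 0.010). With TMM factors and DESeq2 size factors the miR-359 difference was 1.36 and 1.23. It was not tested without the miR-35 to miR-42 reads, a scaling that lowered the miR-359 value in *glp-1(e2144)* to 0.95. For miR-392-3p, with opposite signs in the comparisons, the difference of -3.04 had an unadjusted p of 0.028 and an adjusted p of 0.060 in the exact test. For miR-787-3p the difference of -1.13 had an adjusted p of 0.25 in the exact test, so its fall is not shown to be particular to *glp-1(e2144)*.

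When ctrl was set against WT, 1 of the 11 strands measured lay above the cut-off and 1 below it, where 10.6% and 11.1% of all 198 miRNAs did. These were miR-789-3p and miR-788-5p, the latter at -1.90 (-5.15 to 0.37). With an adjusted p under 0.05 as well there were 0 in each direction, where 5.05% of all rose and 4.55% fell, and 1 strand had an unadjusted p under 0.05, where 43.4% of all 198 did. That strand was miR-359, at 0.86 (0.034 to 1.70; exact binomial test, adjusted p = 0.073), and with TMM factors its value was 1.01 with an adjusted p of 0.037 in the exact test. miR-785-3p, its neighbour, had a value of 0.90 (0.56 to 1.25). WT was the lower library for miR-359 here as well, and it is shared with the comparison of *glp-1(e2144)*. Strain, transgene and temperature cannot be told apart between ctrl and WT.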

How the data were processed

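Small RNA was sequenced from 4 libraries, 1 per strain. Per the labels and the methods, the small RNA fraction was taken from 6 µg of total RNA. The authors removed adapters and reads under 18 bp with the Fastx-ToolKit, aligned the rest to ce10 with Bowtie2, and deposited raw read counts in 697 rows, 447 for mature strands and 250 for hairpins. The counter, versions and treatment of reads with several matches are not given in the sources used here. The labels name a SOLiD library kit and about 1000 worms per pool, and the methods an Illumina instrument and smaller pools. The series text calls CT20 the control, whereas the sample labels make PE255 the control, and the latter was used.

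Each of 434 names was used once, in the row with the most reads, where 26 rows gave the 25 strands described. Scaling was by the total of mature miRNA reads, because the total reads per sample used in the study are not used here. Changes needed reads in both libraries and had no pseudocount. Tests were the exact binomial test, Fisher's exact test and an exact conditional test of the ratio of ratios, each adjusted over all miRNAs or hairpins tested by the Benjamini-Hochberg method. Count models that need replicates could not be fitted. Strands with at least 10 reads over the 4 libraries were named with all their reads, and other strands by their counts. Intervals and tests were meant for pairs with at least 20 reads, and those printed for pairs with fewer, the p-values of miR-354-5p and miR-392-3p among them, were added after the values were seen. Members, lists and tests were chosen with earlier results of these data known. The intervals, the binomial test and the ratio test were checked on reads simulated with counting error only. That check does not cover PCR copies or variation between libraries of a strain. Gene context came from Ensembl annotation of WBcel235. Mature sequences were not printed. Python 3.11.15, numpy 2.4.6, scipy 1.17.1, pandas 2.3.3, and R 4.3.3 with edgeR 4.0.16 (TMM factors only) and DESeq2 1.42.0 (size factors only) were used.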

Additional observations from a re-analysis of the deposited data

Results flagged for a closer look

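Reads on the miR-354 hairpin outside its listed mature strands were picked out as signal in data that the strand counts leave aside. They numbered 8 in WT, 6 in ALG-1/OE and 9 in ctrl, each above the limit of 3 reads that a count of 0 allows, and 3 in *glp-1(e2144)*, at that limit. As a share of the hairpin's reads this was 34.8% in WT (95% Clopper-Pearson interval 16.4% to 57.3%), 25% in *glp-1(e2144)* (5.49% to 57.2%), 47.4% in ctrl (24.4% to 71.1%) and 26.1% in ALG-1/OE (10.2% to 48.4%). The intervals overlapped in all 4 libraries. The hairpin lies in exonic sequence of *rps-20* on the same strand, and the source of these reads was not tested. Whether the counting took the strand of a read into account is not given in the sources used here.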

How the results depend on the processing

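No paired analysis was possible because each strain has 1 library and the labels give no replicate numbers. For single strands, 187 values kept their side of the adjusted p threshold and 1, miR-359 in ctrl against WT with TMM factors, passed it. Values near 0 that passed no test changed sign, for 2 strands in ALG-1/OE with TMM factors, 2 there without miR-35 to miR-42, and 1 in ctrl against WT with TMM factors. The adjusted p of miR-359, miR-354-5p and miR-787-3p in *glp-1(e2144)* stayed under 0.05 with TMM factors, DESeq2 size factors and without miR-35 to miR-42. The value of miR-359 without miR-35 to miR-42 was below the cut-off. These scalings moved the median of all miRNAs by between -0.17 and 0.030, less than the bound of -0.29 for miR-787-3p. The scaling of the study was not run, so the calls are not shown to hold under it. miR-354-5p could not be tested with at least 10 reads required in both libraries.

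In *glp-1(e2144)*, leaving out the miR-35 to miR-42 reads gave 0 strands above the cut-off and a median of -0.93, where 15 of all 199 miRNAs were above it (19 before) and their median was -0.19. The median was -1.06 with a pseudocount of 0.5 reads, -0.89 with all rows of a name summed, 0.077 with at least 10 reads in the higher library and 0.35 with at least 10 in both. The strands below the cut-off numbered 2, 1 and 2 with at least 10 reads in the higher library, in both, and with the adjusted p required. The shares of all miRNAs with the adjusted p required are given above. For the pseudocount, the summed rows, the read minimums and the 1.5-fold cut-off, here and below, no such shares are given. Counts under those settings therefore cannot be read as particular to this group.

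In ALG-1/OE, TMM factors left 1 strand above the cut-off (miR-800-3p was at 0.97) and a median of -0.032, where 14 of all 204 miRNAs were above (23 before) and their median was -0.032 as well, and the pseudocount gave 6 above and a median of 0.57. With at least 10 reads in the higher library there were 1 above, 0 below and a median of 0.35, and with 10 in both or with the adjusted p required there were 0 in each direction. In ctrl against WT, TMM factors gave 3 above and a median of 0.42, where 30 of all 198 miRNAs were above (21 before) and their median was 0.19, the pseudocount 6 below and a median of -0.38, and the cut-off of 1.5-fold 5 above and 3 below. With at least 10 reads in the higher library or in both, or with the adjusted p, there were 0 in each direction, with medians of 0.76 and 0.79 for the first and the second. A minimum of 3 reads left 10 strands detected in WT. A minimum of 30 strand reads left 0 hairpins to test in *glp-1(e2144)* against WT and 1 in ALG-1/OE.

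Scaling moved the median of all miRNAs by -0.17 in *glp-1(e2144)* (without the family), and with TMM factors by -0.17 in ALG-1/OE and 0.15 in ctrl against WT. The depth, with 3 to 5 reads behind the median detected strand of the group in a library, limits most values.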
